A study of Oryza sativa with 6 samples.

Results

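The type-A response regulators of rice were compared between mature leaves of the mutant line osatg5-1 and those of wild-type (WT) plants. The 9 members were taken by locus number from the deposited table of 57839 loci: OsRR1 (LOC_Os04g36070), OsRR2 (LOC_Os02g35180), OsRR3 (LOC_Os02g58350), OsRR4 (LOC_Os01g72330), OsRR5 (LOC_Os04g44280), OsRR6 (LOC_Os04g57720), OsRR7 (LOC_Os07g26720), OsRR9 (LOC_Os11g04720) and OsRR10 (LOC_Os12g04500). All 9 numbers were present. The table pairs no number with a name, so the pairing follows published rice nomenclature. The RefSeq gene table of the assembly ASM3414082v1 lists 8 of the 9 names, each on the chromosome that the locus number gives.

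Messenger RNA was sequenced in 6 libraries, 3 from osatg5-1 and 3 from WT. Both genotypes of Oryza sativa grew in a paddy field under natural long days, and mature leaves were frozen at the tillering stage, when side shoots form. The labels give neither the kind of lesion in osatg5-1, nor the cultivar, nor the number of plants per library. Whether replicates were separate plants is not stated either, and the p-values below therefore cover the spread among these libraries, which may be technical.

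Cytokinins are plant hormones that promote cell division and shoot growth and delay the yellowing of leaves. Receptor histidine kinases pass a phosphate through phosphotransfer proteins to response regulators in the nucleus. Type-B regulators bind DNA and switch on target genes. Type-A regulators lack a DNA-binding output domain, are themselves early cytokinin-induced targets, and dampen the pathway as negative feedback. Their transcripts are therefore widely used as a readout of cytokinin response.

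The totals were 31296258, 36280885 and 39351357 counts in the osatg5-1 libraries and 31628507, 31677943 and 30927816 in the WT libraries. ATG5 encodes a core autophagy protein. At LOC_Os02g02570, the number that rice nomenclature gives to OsATG5, 238, 267 and 275 counts were found in the osatg5-1 libraries and 195, 214 and 175 in the WT libraries. The log2 fold change of 0.20 ± 0.13 (SE) missed the threshold (edgeR adjusted p = 0.322). With the lesion unknown, this level does not check the genotype labels. The 3 Rubisco small-subunit loci, the Rubisco activase locus and the 2 further photosynthesis loci used as mesophyll markers together held 40609 to 42494 CPM (counts scaled to the library size) in osatg5-1 and 37076 to 38967 CPM in WT, so the defining transcripts of leaf mesophyll were abundant.

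Most type-A response regulators were more abundant in osatg5-1 leaves. Of the 9 members, 7 passed the filter on low counts and were tested, 6 rose, none fell and OsRR3 did not pass. OsRR10, OsRR9 and OsRR6 rose 4.60-fold, 4.39-fold and 4.25-fold, and OsRR2, OsRR1 and OsRR4 rose 1.78-fold, 1.71-fold and 1.48-fold. Across all 23074 tested loci, 8.23% were called higher in osatg5-1 and 8.21% lower (edgeR quasi-likelihood test, adjusted p under 0.05). Among the 14722 tested loci with at least 5 CPM on average, 8.64% were called higher. The median log2 fold change was 0.83 over the 7 tested members and 0.00162 over all tested loci. In whole leaves, a change in the number of cells that hold a transcript and a change in its amount per cell cannot be told apart.

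The paralogs OsRR9 and OsRR10 changed most. They lie in a duplicated segment shared by the ends of chromosomes 11 and 12, and in rice their loss has been described to raise salt tolerance. OsRR9 had 123, 115 and 117 CPM in the osatg5-1 libraries, against 24.96, 29.9 and 26.2 CPM in the WT libraries. The lowest mutant library thus lay far above the highest WT library. The log2 fold change was 2.13 ± 0.08 (SE), or 4.39-fold with a 95% interval of 3.86 to 4.98 (edgeR adjusted p = 5.11e-07). OsRR10 had 180, 173 and 151 CPM in osatg5-1, against 39.5, 35.2 and 34.8 CPM in WT. Here too the genotypes did not overlap, and the log2 fold change was 2.20 ± 0.09 (SE), or 4.60-fold with a 95% interval of 4.01 to 5.28 (edgeR adjusted p = 7.14e-07). Reads from near-identical stretches may have been assigned to either paralog. With the counts of both added together the log2 fold change was 2.17 (edgeR adjusted p = 2.51e-07).

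OsRR6, whose overexpression in rice lowers the sensitivity to cytokinin, rose by a similar factor. It had 26.1, 31.6 and 39.4 CPM in osatg5-1, against 6.29, 7.97 and 8.65 CPM in WT. The mutant libraries differed among themselves by more than for OsRR9, yet all lay above WT. The log2 fold change was 2.09 ± 0.16 (SE), or 4.25-fold with a 95% interval of 3.30 to 5.48 (edgeR adjusted p = 3.95e-05). Only 1.11% of all tested loci were called higher with a fold change of 4 or more, the range in which OsRR6, OsRR9 and OsRR10 fell. In the order of log2 fold changes over the 23074 tested loci, OsRR10 ranked 231, OsRR9 243 and OsRR6 259.

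OsRR2, which the homeobox protein WOX11 represses in rice crown roots, had the highest FPKM of the members in WT leaves. It had 325, 311 and 311 CPM in osatg5-1, against 166, 179 and 187 CPM in WT. The genotypes were well apart, with a log2 fold change of 0.83 ± 0.07 (SE) and an edgeR adjusted p of 4.56e-05. OsRR4 had 127, 138 and 136 CPM in osatg5-1, against 78.6, 97.3 and 95.04 CPM in WT. Its rise was the smallest among the called members, at 0.56 ± 0.09 (SE) on the log2 scale (edgeR adjusted p = 0.00188), although no library of 1 genotype reached into the range of the other.

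OsRR1 has been described to bind the flowering activator Ehd1 and to delay heading when overexpressed. It had 11.3, 9.24 and 9.93 CPM in osatg5-1, against 5.46, 5.76 and 6.57 CPM in WT. All mutant libraries were above all WT libraries, and the log2 fold change was 0.77 ± 0.13 (SE; edgeR adjusted p = 0.0033). Tested against a change of up to 1.5-fold, OsRR1 and OsRR4 no longer passed (edgeR adjusted p = 0.412 and 1), while OsRR2, OsRR6, OsRR9 and OsRR10 did. Complete separation of the genotypes with the mutant above was seen at 17.6% of all tested loci and at 6 of the 7 tested members.

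**Figure D1:**
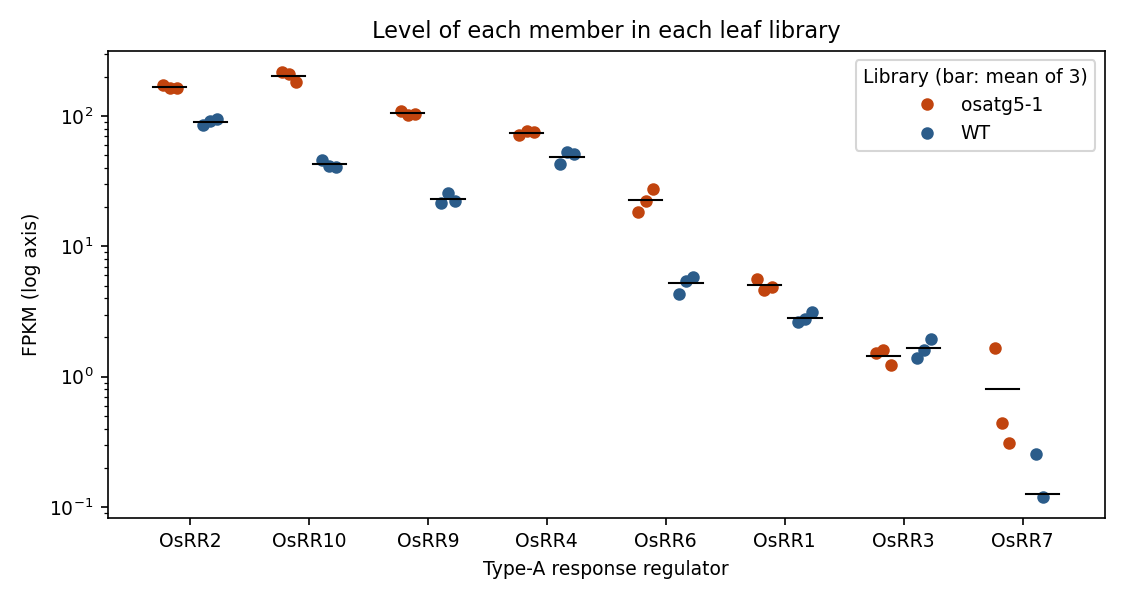
FPKM (fragment counts scaled to gene length and library size, log axis) of 8 type-A response regulators in each library, with osatg5-1 in orange and WT in blue and a bar at the mean of 3 libraries. The mutant points lie above the WT points for OsRR1, OsRR2, OsRR4, OsRR6, OsRR7, OsRR9 and OsRR10, and overlap them for OsRR3; values of 0 (OsRR5 throughout, OsRR7 in 1 WT library) are not drawn.

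**Figure D2:**
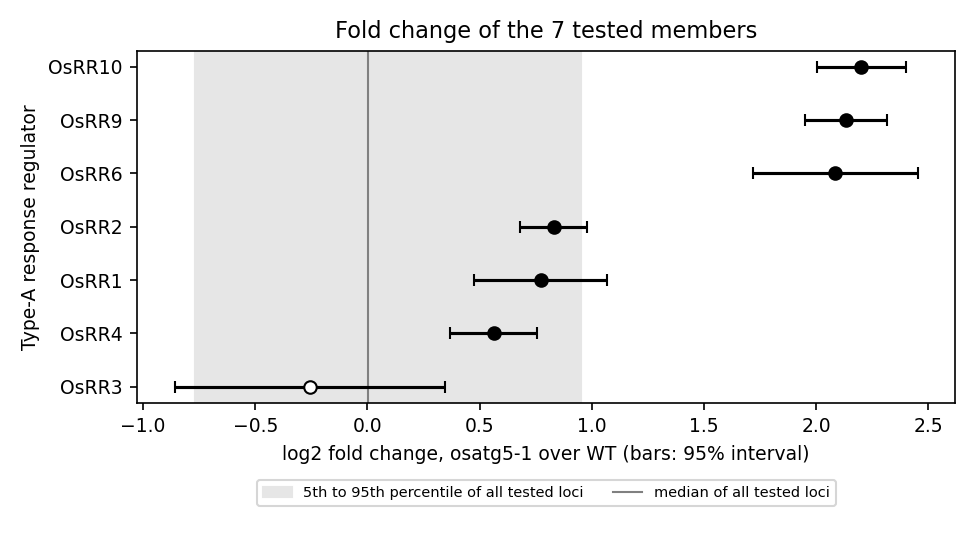
Log2 fold change of osatg5-1 over WT for the 7 tested members, with bars for 95% intervals, filled points for called members and an open point for OsRR3. The band from the 5th to the 95th percentile of all tested loci runs from -0.77 to 0.95, and the points of OsRR6, OsRR9 and OsRR10 lie beyond it.

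The remaining members were rare in these leaves. OsRR3, which dampens cytokinin responses when expressed ectopically in rice, had 40, 49 and 41 counts in osatg5-1, against 38, 44 and 52 counts in WT. The ranges overlapped, and the log2 difference of -0.26 ± 0.27 (SE) missed the threshold (edgeR adjusted p = 0.572). Its 95% interval, from 0.551-fold to 1.27-fold, leaves room for a marked fall or a small rise. That interval lies below the 1.29-fold to 1.69-fold interval of OsRR4, the called member with the smallest rise, but the difference between the members was not tested.

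OsRR7 had 38, 12 and 9 counts in osatg5-1, against 6, 3 and 0 counts in WT, and fell below the filter. The mutant libraries were all higher, but replicate 1 held 38 of their 59 counts. Fitted without the filter, over 32644 loci, its log2 fold change of 2.53 ± 0.87 (SE) missed the threshold (edgeR adjusted p = 0.07). OsRR5 had 0 counts in all 6 libraries. A count of 0 allows up to 3 counts, which corresponds to 0.0754 to 0.0991 CPM per library and covers counting error only. If counts come in pairs, as the excess of counts of 2 over counts of 1 leaves possible, the limit is 6 counts, or 0.151 to 0.198 CPM. A difference in OsRR5 was thus not detectable at this depth.

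Levels were set against each other between members on the FPKM scale, which corrects for length. In osatg5-1 the order ran from OsRR10 (203 ± 19.0 FPKM, SD) through OsRR2 (168 ± 4.64), OsRR9 (105 ± 3.83), OsRR4 (74.8 ± 3.20), OsRR6 (22.8 ± 4.66), OsRR1 (5.04 ± 0.514) and OsRR3 (1.45 ± 0.203) to OsRR7 (0.803 ± 0.747; n = 3 each). Among neighbours in that order, the library values overlapped only between OsRR3 and OsRR7. In WT the order began with OsRR2 (91.0 ± 5.02 FPKM, SD), followed by OsRR4 (48.9 ± 5.47), OsRR10 (42.7 ± 3.22), OsRR9 (23.2 ± 2.23), OsRR6 (5.19 ± 0.812), OsRR1 (2.84 ± 0.258), OsRR3 (1.65 ± 0.292) and OsRR7 (0.125 ± 0.127). Here OsRR4 and OsRR10 overlapped, as did OsRR7 and OsRR5, which was at 0.

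The make-up of the family differed as well as its level. The summed FPKM of the 9 members was 581 ± 19.4 in osatg5-1 and 216 ± 9.52 in WT (SD, n = 3 each). OsRR9 and OsRR10 together made up 51.0% to 54.7% of that sum in the osatg5-1 libraries and 28.5% to 33.2% in the WT libraries. OsRR2 and OsRR4 together made up 40.7% to 42.9% in osatg5-1 and 62.6% to 66.5% in WT. The shares of each pair did not overlap between genotypes. Their size rests on the length correction of FPKM. In CPM, OsRR2 and OsRR4 averaged 316 and 133 in osatg5-1, against 168 and 118 for OsRR10 and OsRR9. The summed CPM of the 9 members was 780 ± 15.2 in osatg5-1 and 346 ± 20.7 in WT (SD, n = 3 each).

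**Figure D3:**
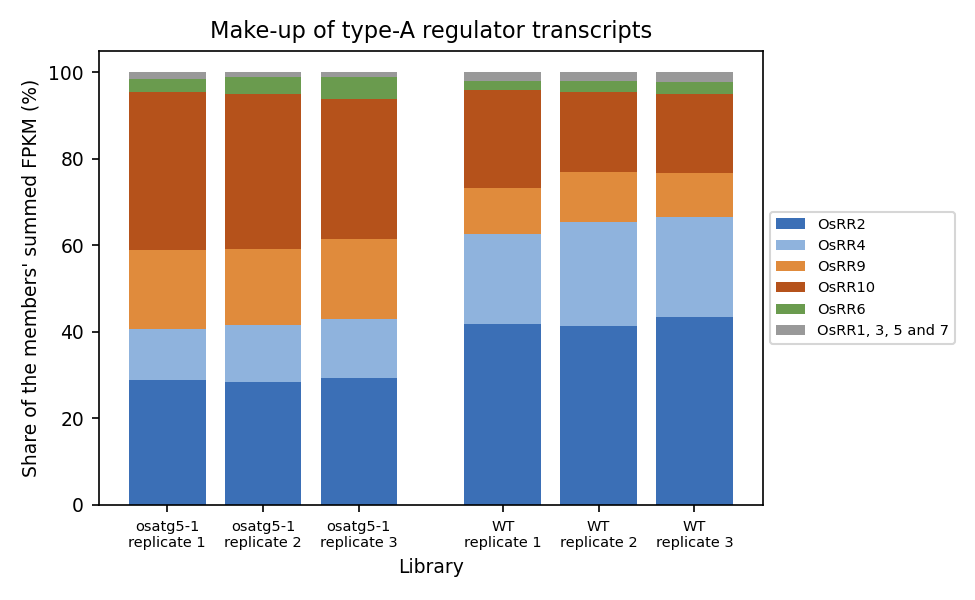
Share of each member in the summed FPKM of all 9 (percent, stacked) in the 3 osatg5-1 libraries on the left and the 3 WT libraries on the right. The OsRR9 and OsRR10 segments together take 51.0% to 54.7% in osatg5-1 and 28.5% to 33.2% in WT.

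Members were also set against OsRR2 as ratios within each library. For OsRR10 over OsRR2 the FPKM ratio was 1.26, 1.27 and 1.11 in osatg5-1 and 0.542, 0.449 and 0.423 in WT. The member with the higher FPKM thus differed between the genotypes, which rests on the length correction. In CPM, without that correction, OsRR2 averaged more than OsRR10 in osatg5-1 (316 and 168) and in WT (178 and 36.5). The ratio of OsRR9 to OsRR2 was 0.634, 0.618 and 0.632 in osatg5-1 and 0.252, 0.280 and 0.234 in WT. OsRR6 over OsRR2 was 0.107, 0.135 and 0.169 in osatg5-1 and 0.0501, 0.0592 and 0.0613 in WT. These 3 ratios, and that of OsRR4 to OsRR2, did not overlap between genotypes and each reached an exact two-sided permutation p of 0.1, the smallest that 3 libraries against 3 allow. Adjusted over the 6 ratios compared, p was 0.15 in the same exact test.

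The balance between the paralogs overlapped between the genotypes. OsRR9 over OsRR10 was 0.502, 0.487 and 0.571 in osatg5-1 and 0.465, 0.624 and 0.554 in WT, and the log2 difference of -0.07 lay within the spread (exact permutation test, two-sided p = 0.7). OsRR1 over OsRR2 was 0.0324, 0.0278 and 0.0299 in osatg5-1 and 0.0306, 0.0302 and 0.0327 in WT (exact permutation test, two-sided p = 0.4). With 3 libraries per genotype these p-values do not show that the ratios were equal.

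OsRR2 had the highest mean FPKM over the 6 libraries, and likeness to it was measured as the root mean square difference between log2 CPM profiles, each centred on its own mean. The most similar of all tested loci were LOC_Os06g45100 (0.03) and LOC_Os06g39270 (0.041), which had log2 fold changes of 0.86 and 0.81. OsRR1 ranked 13 in that order, with a difference of 0.0795, and OsRR4 ranked 235. OsRR6, OsRR9 and OsRR10 had larger fold changes than OsRR2 and ranked 19158, 19210 and 19867. With 6 libraries in 2 genotypes, this order mainly ranks loci by the size of their genotype difference.

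Other steps of the cytokinin pathway were followed in 9 lists of locus numbers, 52 in all, which rest on published rice nomenclature because the files give no names. Of the 51 numbers in the table, 36 were tested, 6 rose, 7 fell and 23 did not pass. Their 13 calls make up 36.1% of the 36 tested, against 16.4% of all tested loci, and their median log2 fold change was -0.06. The lists thus held calls in both directions.

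The cytokinin oxidases, enzymes that degrade cytokinins and are themselves induced by them, held the largest changes. Of 8 tested loci on that list, 3 rose and 2 fell. These 62.5% called stand against 16.4% of all tested loci. The list's median log2 fold change was 0.76, and its summed level was 347 to 396 CPM in osatg5-1 and 281.5 to 296 CPM in WT. LOC_Os01g10110 had 12.5, 17.7 and 13.4 CPM in osatg5-1, against 1.14, 1.22 and 1.22 CPM in WT. This was a 12.2-fold rise with a 95% interval of 9.22 to 16.0 (edgeR adjusted p = 2.46e-06), with wide separation of the genotypes. LOC_Os01g71310, the oxidase locus with the highest FPKM, had 294, 233 and 250 CPM in osatg5-1, against 145, 167 and 145 CPM in WT, a log2 fold change of 0.77 ± 0.10 (SE; edgeR adjusted p = 0.000547). LOC_Os05g31040 fell to 6.003, 5.44 and 5.86 CPM in osatg5-1, against 15.1, 11.97 and 10.97 CPM in WT, a log2 fold change of -1.14 ± 0.14 (SE; edgeR adjusted p = 0.000514). LOC_Os08g35860 also fell, with a log2 fold change of -0.55 ± 0.09 (SE; edgeR adjusted p = 0.00279).

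LOG enzymes activate cytokinins by releasing the base from its riboside phosphate. Of 10 tested loci on that list 2 were called, both lower. These 20% stand against 8.21% of all tested loci called lower and 16.4% called in either direction. With 2 calls among 10 loci the count is small, and whether the list differs from all loci was not tested. The list's median log2 fold change was -0.38. LOC_Os03g64070 averaged 26.2 ± 2.48 CPM in osatg5-1 and 44.9 ± 2.17 CPM in WT (SD, n = 3 each; edgeR adjusted p = 0.00027), and LOC_Os03g01880 averaged 17.5 ± 1.39 CPM in osatg5-1 and 32.2 ± 4.84 CPM in WT (edgeR adjusted p = 0.000799). LOC_Os01g40630, the locus of this list with the highest FPKM, averaged 557 ± 44.0 CPM in osatg5-1 and 582 ± 27.9 CPM in WT and did not pass (edgeR adjusted p = 0.625). It falls outside the rule for named loci and was chosen after its values were seen. Isopentenyltransferases, which make the first cytokinin precursor, were nearly silent, with 4 of 8 loci at 0 counts in every library. Of the 2 tested, 1 rose, by 1.88 ± 0.45 (SE) on the log2 scale (edgeR adjusted p = 0.0177). That rise rests on few counts, 82, 59 and 44 in osatg5-1 and 7, 20 and 17 in WT. The means were 1.77 and 0.475 CPM. The other did not pass, at 1.53 ± 0.55 (SE; edgeR adjusted p = 0.0888). Over all tested loci, 8.23% were called higher. The single tested locus for a CYP735A hydroxylase, an enzyme that makes trans-zeatin forms, did not pass.

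The lists of receptors, phosphotransfer proteins and type-B regulators are short. Their counts stand against 16.4% of all tested loci called, 8.23% higher and 8.21% lower. Whether each listed locus acts upstream of the type-A members in these leaves was not tested. Of 4 receptor loci, LOC_Os03g50860 rose by 0.37 ± 0.06 (SE) on the log2 scale (edgeR adjusted p = 0.00274), 1 fell and 2 did not pass. Neither of the 2 phosphotransfer loci passed the test, and 1 of 3 pseudo-phosphotransfer loci, whose products inhibit the relay in Arabidopsis, fell. Of 6 tested type-B loci, 1 rose, 1 fell and 4 did not pass. The one that rose, LOC_Os10g32600, averaged 8.42 ± 1.05 CPM in osatg5-1 and 5.11 ± 0.310 CPM in WT, a log2 fold change of 0.72 ± 0.14 (SE; edgeR adjusted p = 0.00626). The 4 further type-A numbers outside the member set were not tested, and 3 of them had 0 counts in every library.

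**Figure D4:**
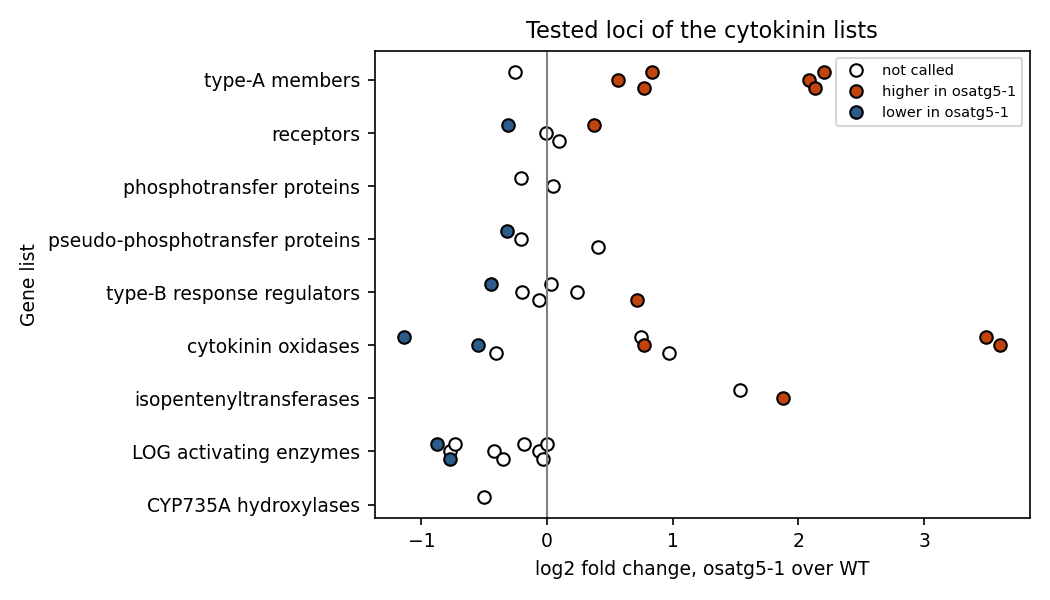
Log2 fold change of osatg5-1 over WT for the tested type-A members and the tested loci of 8 cytokinin lists, with orange points for called rises, blue points for called falls and open points for loci that did not pass. To the right lie 6 of the 7 type-A members, all called higher, and to the left OsRR3. The oxidases spread to both sides, with a median of 0.76. The 2 tested isopentenyltransferase loci lie to the right, and the called LOG loci to the left.

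Markers of cell types were examined beside these results. Over all tested loci, 8.23% were called higher and 8.21% lower. Of 6 mesophyll markers, 4 were called higher and none lower, with the summed levels given above. The largest rise was 2.40-fold at the Rubisco small-subunit locus LOC_Os12g17600. The other 2 leaned lower but did not pass. Rubisco activase, LOC_Os11g47970, averaged 22866 CPM in osatg5-1 and 25218 CPM in WT (edgeR adjusted p = 0.173). LOC_Os01g41710 had a log2 fold change of -0.29 ± 0.13 (SE; edgeR adjusted p = 0.169). Of 3 shoot meristem markers, LOC_Os03g51690 had 2 counts in all and LOC_Os07g03770 had none. The third, LOC_Os06g50340, fell by 0.89 on the log2 scale (edgeR adjusted p = 0.000917). The summed level was 7.59 to 9.59 CPM in osatg5-1 and 15.5 to 18.0 CPM in WT. LOC_Os06g50340 held nearly all of that sum, which is therefore not a separate result. Of 4 dividing-cell markers 3 were tested and 1 rose, LOC_Os08g40170, with 25, 20 and 18 counts in osatg5-1 and 2, 4 and 2 in WT. The summed level of those markers was 19.9 to 21.7 CPM in osatg5-1 and 20.2 to 21.3 CPM in WT. The part of these shifts in the type-A rise was not tested.

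The chromosomal surroundings of the 6 members that rose were described from the 5 tested loci on each side, ordered by locus number. Of these 60 neighbours 8 were called higher and 3 lower, or 18.3%, against 16.4% of all tested loci, and their median log2 fold change was 0.06. No neighbour of OsRR1 was called. All 10 neighbours of OsRR10 had positive log2 fold changes, from 0.02 to 1.40, but only 2 of them were called. Around OsRR9, 3 of 10 were called higher, among them LOC_Os11g04660 at 3.53. The share called higher was 8.23% over all tested loci, where the median log2 fold change was 0.00162. Since OsRR9 and OsRR10 lie in a duplicated segment, their surroundings may share reads and may not be independent regions. Reads that overlapping neighbours share may count for either, since the strand setting of the counting is not given in the sources used here.

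**Figure D5:**
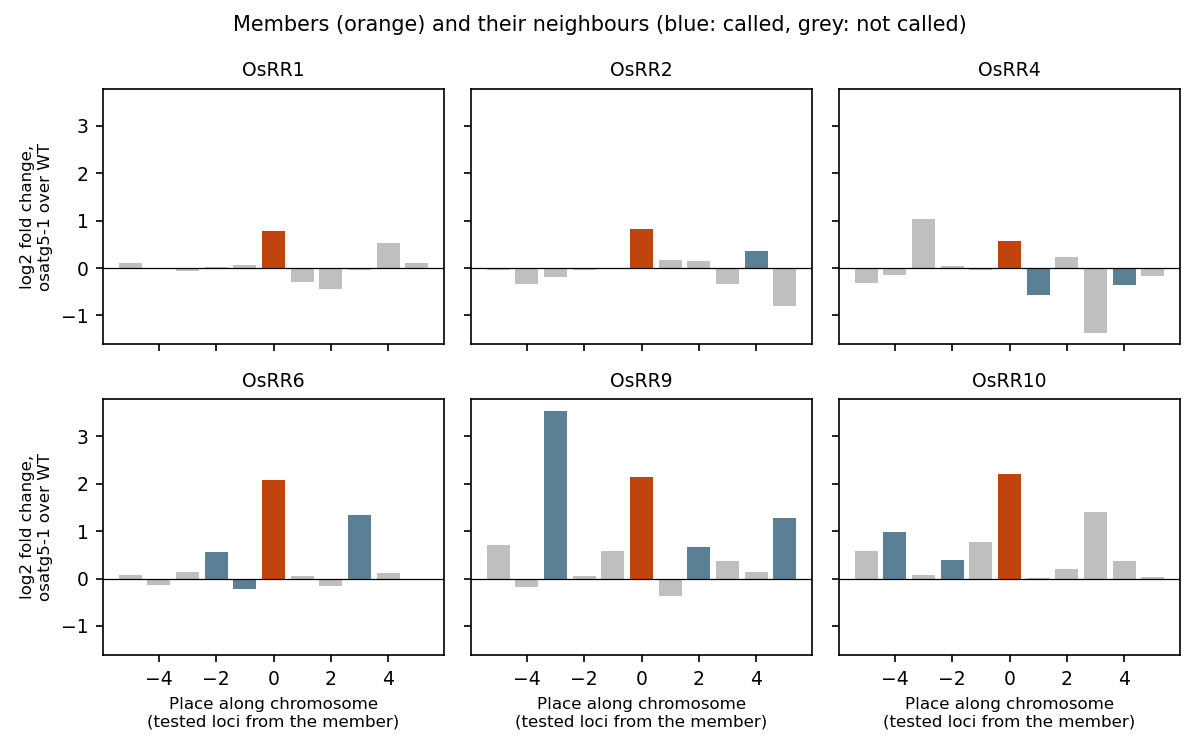
Log2 fold change of osatg5-1 over WT for each of the 6 members that rose (orange, place 0) and for the 5 tested loci on either side, in blue where called and grey where not. OsRR1, OsRR2, OsRR6 and OsRR10 stand above all their neighbours, whereas OsRR4 and OsRR9 each have a neighbour with a higher value, at 1.03 and 3.53.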

How the data were processed

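Libraries came from a stranded mRNA kit, primed with random hexamers, per the labels' protocols. The authors deposited raw counts per locus, 1 column per library, and FPKM values in 1 file per library, per the file headers. HISAT2 and the build IRGSP-1.0 appear in the submitters' processing notes. How reads were assigned to loci, with which annotation and strand option, is not given in the sources used here. Counts were tested as deposited with edgeR 4.0.16 (R 4.3.3), using filterByExpr, TMM scaling and the quasi-likelihood test with genotype as the only term, Benjamini-Hochberg adjustment over all 23074 tested loci and a threshold of 0.05. CPM values are TMM-normalized, and the SE is the size of the log2 fold change divided by the square root of F. FPKM served to compare levels between members. Counts of 2 were 2.58 to 2.83 times as frequent as counts of 1, so counts cannot be assumed to be independent molecules.

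The members and lists were chosen with earlier results of these data known. Named loci are all members, ATG5, the 8 called pathway loci with the smallest adjusted p, and the 2 loci most like the member of highest FPKM; markers and neighbours were singled out after their values were seen. Deviations of libraries with the same replicate number correlated at 0.0281, -0.0267 and 0.0878, so the numbers were not treated as pairs. Every 2 libraries differed by more than counting noise (chi-square per degree of freedom at least 10.35). Alternatives were RLE and library-size scaling, 2 other filters, DESeq2 1.42.0, limma 3.58.1 (voom, and log2(FPKM + 1)), a replicate block, a test against 1.5-fold, summed paralogs, each library left out and, added after seeing the data, removal of each library's trend over length.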

Additional observations from a re-analysis of the deposited data

How the results depend on the processing

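The number of called type-A members stayed at 6 under both other scalings, both other filters, DESeq2, both limma fits, the replicate block, removal of the length trend and each of the 6 fits without 1 library. It was 5 with the paralogs summed, which leaves 1 locus fewer, and 4 in the test against a change of up to 1.5-fold, which by construction passes only larger changes. Over these 17 alternatives the log2 fold change lay between 2.15 and 2.28 for OsRR10, 2.08 and 2.21 for OsRR9, 1.93 and 2.22 for OsRR6, 0.79 and 0.88 for OsRR2, 0.65 and 0.85 for OsRR1, 0.47 and 0.62 for OsRR4 and -0.37 and -0.11 for OsRR3. No member changed direction. Over all loci 3793 were called, and 3638 to 4153 under the other settings, except 720 in the test against 1.5-fold and 2567 to 3500 without 1 library. The even split of 1899 higher and 1894 lower loci depended on the scaling: it was 2284 and 1431 on log2(FPKM + 1) and 2269 and 1617 with library-size scaling. The pathway lists held 13 calls, 2 in the test against 1.5-fold, 12 to 15 under the other settings and 11 to 15 without 1 library. With the replicate block 3765 loci, 6 members and 13 pathway loci were called. OsRR3, OsRR5 and OsRR7 rest on few counts, which limits what could be detected.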
